A study of Mus musculus with 10 samples.

Results

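The Wnt pathway genes described here were measured by RNA sequencing in sorted mouse epidermal cells labelled as knockouts for subunits of either Polycomb complex. They were taken by name from the authors' deposited gene tables: every gene named Wnt or Fzd with a number, and the receptors, transcription factors and feedback genes Lrp5, Lrp6, Lgr4, Lgr6, Axin2, Lef1, Tcf7, Tcf7l1, Tcf7l2, Nkd1, Nkd2, Notum, Znrf3 and Rnf43. Present in both tables were 42 such genes, of 18502 genes in the Eed table and 18344 in the Ring1 table. They comprised 18 Wnt ligands, 10 Frizzled receptors, 2 co-receptors, 2 R-spondin receptors, 4 TCF/LEF factors and 6 feedback genes.

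The study compared Eed KO cells (n = 3 libraries) with Eed Control cells (n = 3), and Ring1a/b 2KO cells, labelled as lacking both Ring1 genes (n = 2), with Ring1 Control cells (n = 2). Each knockout had controls of its own, and the tables were normalised separately. Per the labels, all groups came from back skin of mice at postnatal day 71, after 100 µl of 4-hydroxytamoxifen at 20 mg/ml had been put on the shaved skin daily for 4 days from postnatal day 50 to induce recombination. Cells of the epidermis between the hair follicles were sorted as EpCAM+, Sca1+ and high in α6-integrin, and 10 libraries were made from amplified total RNA. The sources used here do not give the Cre driver or the deleted exons. They do not say if the libraries of a group come from different mice, and the p-values therefore measure the spread between libraries, which may be technical.

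Wnt proteins are secreted lipid-modified ligands that bind Frizzled receptors together with the co-receptors Lrp5 or Lrp6. Binding stabilises β-catenin, which enters the nucleus and turns TCF/LEF factors on their target genes from repression to activation. Among the targets are feedback inhibitors: Axin2, Nkd1 and Nkd2 act inside the cell, Notum removes the lipid from secreted Wnts, and the ubiquitin ligases Znrf3 and Rnf43 clear Frizzled receptors from the surface unless R-spondins engage the Lgr receptors. In skin, Wnt signals act in basal cells of the epidermis and in hair follicle growth, and many genes of the pathway carry Polycomb marks in cells that keep them silent.

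Recovered reads per library numbered 31699979 to 40701183 in Eed KO and 32667439 to 39006853 in Eed Control. The Ring1a/b 2KO libraries held 19814853 and 6237389 reads, and the Ring1 Control libraries 25158144 and 7162907, so library 2 of each Ring1 group was the shallower. The targeted gene Eed averaged 1298 normalised reads in Eed KO (range 1143 to 1412) and 1623 in Eed Control (range 1319 to 1845). Ring1 averaged 109.6 in Ring1a/b 2KO (104 and 115) and 139 in Ring1 Control (66.2 and 211). Rnf2, which encodes Ring1b, averaged 624 (720 and 529) and 672 (675 and 670). The groups overlapped for each of these genes. Summed over the whole gene, these values cannot check the labels. Of the sorting markers, Epcam lay between 938 and 5886 normalised reads over the 10 libraries, and Itga6, which encodes α6-integrin, between 9343 and 62777. These ranges span both tables. The authors' log2 fold changes in Eed KO and Ring1a/b 2KO were 0.01 and −0.09 for Epcam and −0.34 and −0.69 for Itga6. For Ly6a, which encodes Sca1, they were 0.14 and 0.38, and none of these was called.

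Stretches before RefSeq starts of the 4 TCF/LEF factors are shown first. Lef1 and Tcf7l1 had higher counts in every knockout library of both kinds, and Tcf7 and Tcf7l2 did not. Each stretch is the 250 bases before the RefSeq start (GRCm38.p6) nearest the annotated gene start, 5′ to 3′ on the gene's strand, with CG dinucleotides in capitals.
Lef1, chr3:131110073-131110322, plus strand: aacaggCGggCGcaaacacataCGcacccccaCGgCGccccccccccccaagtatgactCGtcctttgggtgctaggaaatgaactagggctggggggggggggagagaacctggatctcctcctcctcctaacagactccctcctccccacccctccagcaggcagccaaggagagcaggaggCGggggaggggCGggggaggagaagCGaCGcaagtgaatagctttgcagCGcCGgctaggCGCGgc
Tcf7l1, chr6:72789046-72789295, minus strand: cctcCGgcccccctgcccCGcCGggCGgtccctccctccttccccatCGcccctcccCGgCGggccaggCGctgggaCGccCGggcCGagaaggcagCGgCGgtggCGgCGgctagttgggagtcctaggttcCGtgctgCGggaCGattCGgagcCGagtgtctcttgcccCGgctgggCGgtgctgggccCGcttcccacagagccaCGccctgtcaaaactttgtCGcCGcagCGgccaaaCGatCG
Tcf7, chr11:52283015-52283264, minus strand: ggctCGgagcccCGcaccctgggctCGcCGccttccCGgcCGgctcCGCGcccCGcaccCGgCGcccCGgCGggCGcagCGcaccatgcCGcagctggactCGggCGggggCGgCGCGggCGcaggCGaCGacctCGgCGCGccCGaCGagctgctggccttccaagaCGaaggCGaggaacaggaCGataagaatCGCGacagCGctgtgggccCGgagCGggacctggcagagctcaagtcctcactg
Tcf7l2, chr19:55741560-55741809, plus strand: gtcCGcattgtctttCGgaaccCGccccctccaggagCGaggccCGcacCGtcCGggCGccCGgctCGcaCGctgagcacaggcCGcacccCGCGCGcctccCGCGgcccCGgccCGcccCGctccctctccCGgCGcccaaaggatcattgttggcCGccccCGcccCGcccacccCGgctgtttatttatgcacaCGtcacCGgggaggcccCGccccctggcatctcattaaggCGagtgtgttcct

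CG dinucleotides matter here as background, since Polycomb complexes are known to gather at CG-rich promoters in mammals. The Lef1 stretch held 14, Tcf7l1 29, Tcf7 37 and Tcf7l2 30, at the starts shown. The Tcf7 stretch holds an ATG that opens a reading frame without a stop up to the end of the stretch. Part of it may thus be coding, and its 37 CG may not be those of a promoter. The table lists 4 starts for Lef1, with 5 to 14 CG, and 2 each for Tcf7 and Tcf7l2, whose other starts held 15 and 7, so the numbers depend on the start taken. RefSeq's table matched 30 of the 42 genes. Their median was 24.5 CG in the 250 bases, with a range of 5 to 48, against a median of 6 over all 32841 promoters in the table. Here and below, the 30 genes were counted only at the start nearest the annotated gene start. All promoters include every start listed for a gene, so the sets are unlike. At least 10 CG were found in 26 of the 30, against 37.8% of all promoters. The core TCF/LEF motif CTTTGA, searched on both strands, was present in 2 of the 30 stretches, those of Fzd1 and Wnt11, and in 13.8% of all promoters. It was in none of the 4 stretches printed above, and 2 copies preceded the Lef1 start that lies 45823 bases from the annotated one.

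Levels were compared between genes as normalised reads per kb of exon. Among ligands Wnt4 was the highest in both tables, followed by Wnt10a and Wnt3. Wnt4 had 2258, 2247 and 1937 normalised reads per kb in Eed KO libraries 1 to 3, against 1504, 2305 and 1659 in Eed Control. The groups overlapped, and Wnt4 took 37.9% to 39.2% of the summed ligand level in Eed KO and 33.6% to 35.8% in Eed Control. In Ring1a/b 2KO it had 568 and 500.2 normalised reads per kb, against 729 and 648 in Ring1 Control, and held 34.5% to 37.4% and 34.4% to 34.5% of the ligand sum. Wnt10a stood next with 1544, 1388 and 1037 normalised reads per kb in Eed KO, against 884, 1692 and 1038 in Eed Control. Wnt3 followed with 830, 1028 and 705 in Eed KO, against 754, 1231 and 801 in Eed Control. The order Wnt4, Wnt10a, Wnt3 held within each of the 10 libraries, though the ranges of Wnt10a and Wnt3 over libraries overlapped.

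The other ligands ran down to Wnt8b, which had 1.58 normalised reads in Eed KO library 3 and 0 in the other Eed libraries. In the Ring1 table Wnt8b had 0.521 in Ring1 Control library 1 and 0 in the others. Zero reads leave room for up to 3 reads in a library, counting error only. Among Frizzled receptors, Fzd6 led with 793, 735 and 710.5 normalised reads per kb in Eed KO, against 785, 682 and 653 in Eed Control. Fzd10 and Fzd7 came next in the Eed table, and Fzd7 and Fzd1 in the Ring1 table. Fzd10 had 538, 489.5 and 363 normalised reads per kb in Eed KO, against 428, 648 and 373 in Eed Control, and Fzd7 421, 428 and 547, against 241, 508 and 207. Both overlapped. In the Ring1 table Fzd6 had 398 and 410.1 normalised reads per kb in Ring1a/b 2KO, against 336 and 403 in Ring1 Control. Fzd9 was the lowest, at 0 to 6.31 normalised reads in Eed KO and 0 to 3.90 in Eed Control.

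In the other roles Lrp6 stood above Lrp5 and Lgr6 above Lgr4, in every library of both tables. Lrp6 had 321, 353 and 439 normalised reads per kb in Eed KO, against 380 to 502 in Eed Control, and Lrp5 229, 312 and 248, against 262 to 347. Lgr6, a stem cell receptor of the epidermis and follicle, had 1133, 1904 and 1594 normalised reads per kb in Eed KO, against 1571, 2252 and 1695 in Eed Control. Lgr4 had 533, 530 and 595 in Eed KO, against 504, 624 and 595 in Eed Control, so the groups of each receptor overlapped. Tcf7l2 and Tcf7 were the main TCF/LEF genes, with Tcf7l1 and then Lef1 below them by mean. Tcf7l2 had 321, 413 and 386 normalised reads per kb in Eed KO, against 345, 364 and 301 in Eed Control, and Tcf7 422, 238 and 222, against 197, 249 and 239. Znrf3, Axin2 and Rnf43 were the most abundant feedback genes. Znrf3 had 468, 762 and 784 normalised reads per kb in Eed KO, against 874, 849 and 737 in Eed Control, and Rnf43 314, 437 and 366, against 371, 449 and 301. Both overlapped, Znrf3 with its lowest value in Eed KO 1. Nkd2, Nkd1 and Notum lay far below, none above 31.0 normalised reads per kb in the Eed libraries or 24.1 in the Ring1 libraries.

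**Figure D1:**
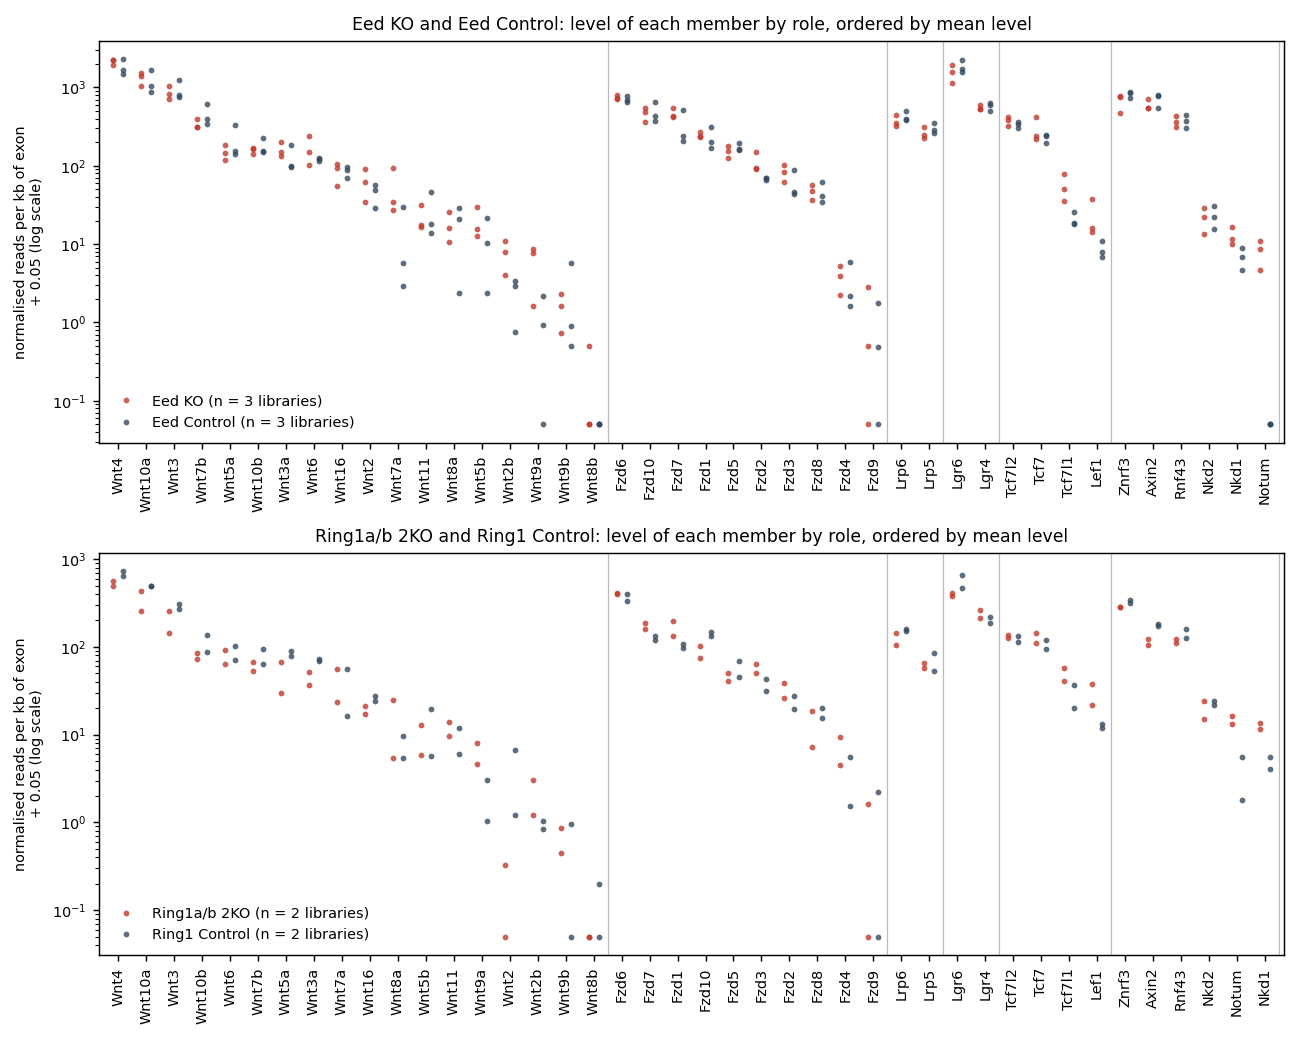
Level of the 42 genes as normalised reads per kb of exon, plus 0.05, on a log axis, by role (separated by lines: ligands, Frizzled receptors, co-receptors, R-spondin receptors, TCF/LEF factors, feedback genes) and ordered by mean. Points are libraries, knockout red and left, control dark and right; Wnt4, Fzd6, Lrp6, Lgr6, Tcf7l2 and Znrf3 lead their roles in both tables.

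The labelled knockout of Eed, a core subunit of Polycomb repressive complex 2, was set against its own controls, and most of the 42 genes overlapped between the groups. Notum, Tcf7l1, Lef1, Nkd1, Wnt2b and Fzd2 were higher in all 3 Eed KO libraries than in any Eed Control library, and no gene was lower without overlap. Those 6 of 40 tested genes stand beside 5.06% of all genes tested that were higher without overlap and 4.15% that were lower. limma on log2 values called 0 of the 40 at an adjusted p under 0.05, as it called 0% of all 16122 genes tested. At an unadjusted limma p under 0.05, 7 were higher, against 3.4% of all genes, and 0 were lower, against 1.33%. edgeR on the recovered reads also called 0 of the 38 it tested and 0% of all 15081 genes, with 6 of the 38 at an unadjusted p under 0.05, against 4.63% of all. By the authors' deposited table Notum alone was called higher, which is 1 gene, and 0 were lower, against 0.707% and 0.0539% of all genes. The median log2 fold change of the 40 was 0.15, with 23 positive and 17 negative, beside a median of 0.01 over all genes. Wnt8b and Fzd9 lay under the limit of a mean of 5 and were not tested.

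Notum, the secreted enzyme that inactivates Wnt ligands (ENSMUSG00000042988.10, chromosome 11, 120653788 to 120661175, mm10), was the one gene called. It had 26.4, 20.7 and 11.04 normalised reads in Eed KO libraries 1 to 3, against 0, 0 and 0 in Eed Control. Reads were present in every knockout library and in no control library. The mean of 19.4 ± 7.76 in Eed KO (SD, n = 3) was at least 6.46-fold higher than a control level set at the floor of 3 reads a library. The authors' deposited table gave a log2 fold change of 6.72 (SE 1.65, DESeq2 adjusted p = 0.0124), a fitted value with no control reads behind it. limma gave 4.27 (SE 0.91, adjusted p = 0.537). With single libraries left out, DESeq2 kept Notum past the threshold without Eed KO 3 (adjusted p = 0.0396) and without Eed Control 2 (adjusted p = 0.0262). The DESeq2 call was lost without Eed KO 1 (adjusted p = 0.431), Eed KO 2 (0.0910), Eed Control 1 (0.0961) or Eed Control 3 (0.0691).

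Tcf7l1 and Lef1, DNA-binding partners of β-catenin, were the TCF/LEF factors that stood apart. Tcf7l1, mostly a repressor known from the hair follicle bulge (ENSMUSG00000055799.13, chromosome 6, 72626378 to 72789254), had 305, 138 and 200.4 normalised reads in Eed KO, against 71.1, 100.4 and 72.8 in Eed Control. All 3 knockout libraries were above all controls, library 1 the most. Its means of 214 ± 84.2 and 81.5 ± 16.5 (SD, n = 3 each) gave 2.63-fold, a limma log2 fold change of 1.33 (95% interval 0.45 to 2.21, adjusted p = 0.779), and a DESeq2 adjusted p of 0.0663. DESeq2 passed it without Eed KO 2 (adjusted p = 0.0176) or without Eed Control 2 (adjusted p = 0.0418). Lef1, an activator known from hair matrix and follicle buds (ENSMUSG00000027985.14, chromosome 3, 131110471 to 131224356), had 332, 124 and 140.4 normalised reads in Eed KO, against 69.1, 59.9 and 96.1 in Eed Control. Library 1 was again the highest and the groups did not overlap. The ratio of means was 2.65-fold, with a limma log2 fold change of 1.28 (95% interval 0.26 to 2.29, adjusted p = 0.921). Tcf7 and Tcf7l2 overlapped their controls, with log2 fold changes of 0.31 (SE 0.28) and 0.15 (SE 0.18).

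Among ligands 3 of the 17 tested had an unadjusted limma p under 0.05, all with higher means in Eed KO and all of low level. Wnt7a, expressed by surface epithelia (ENSMUSG00000030093.7, chromosome 6, 91363981 to 91411363), had 297, 86.1 and 108 normalised reads in Eed KO, against 94.5, 9.13 and 18.2 in Eed Control. Eed Control 1 was above Eed KO 2, so the groups overlapped. The pairs by library number gave log2 ratios of 1.64, 3.10 and 2.51. The ratio of means was 4.04-fold (limma log2 fold change 2.42, SE 0.82, adjusted p = 0.912). DESeq2 gave a log2 fold change of 2.01 for Wnt7a with all libraries (adjusted p = 0.406) and called it without Eed Control 1, at 3.57 (adjusted p = 0.000903). Wnt2b (ENSMUSG00000027840.5, chromosome 3, 104945272 to 104961921) had 45.6, 16.6 and 33.1 normalised reads in Eed KO, against 2.92, 12.2 and 14.2 in Eed Control. It did not overlap, at 3.26-fold, though Eed KO 2 lay close above the highest control (limma log2 fold change 1.72, SE 0.74, adjusted p = 0.989). Wnt9a had 28.8, 5.19 and 25.2 normalised reads in Eed KO, against 2.92, 0 and 7.08 in Eed Control, and overlapped at 5.92-fold (limma log2 fold change 2.42, SE 1.05, adjusted p = 0.989). The 14 other tested ligands had log2 fold changes between −0.40 for Wnt5a and 1.11 for Wnt5b.

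Fzd2, a Frizzled receptor (ENSMUSG00000050288.6, chromosome 11, 102604396 to 102608058), had 554, 335 and 342 normalised reads in Eed KO, against 254, 257 and 238 in Eed Control. The controls lay close together and every knockout library was above them, at 1.64-fold (limma log2 fold change 0.68, SE 0.28, adjusted p = 0.989). The other 8 tested Frizzled genes ran from −0.19 for Fzd5 to 0.65 for Fzd7 on the log2 scale, each with overlap. The co-receptors Lrp5 and Lrp6 had log2 fold changes of −0.18 and −0.20, and Lgr4 and Lgr6 of −0.05 and −0.27. Nkd1, a Dishevelled-binding inhibitor (ENSMUSG00000031661.12, chromosome 8, 88521354 to 88594884), had 45.6, 52.9 and 74.2 normalised reads in Eed KO, against 31.2, 21.3 and 40.5 in Eed Control. It was higher without overlap at 1.86-fold (limma log2 fold change 0.89, SE 0.47, adjusted p = 0.989). Axin2, the feedback gene most used as a readout of β-catenin signalling (ENSMUSG00000000142.15, chromosome 11, 108920349 to 108950783), had 2981, 3860 and 3048 normalised reads in Eed KO, against 4224, 4420 and 3011 in Eed Control. It overlapped, with a log2 fold change of −0.23 (95% interval −0.69 to 0.24).

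**Figure D2:**
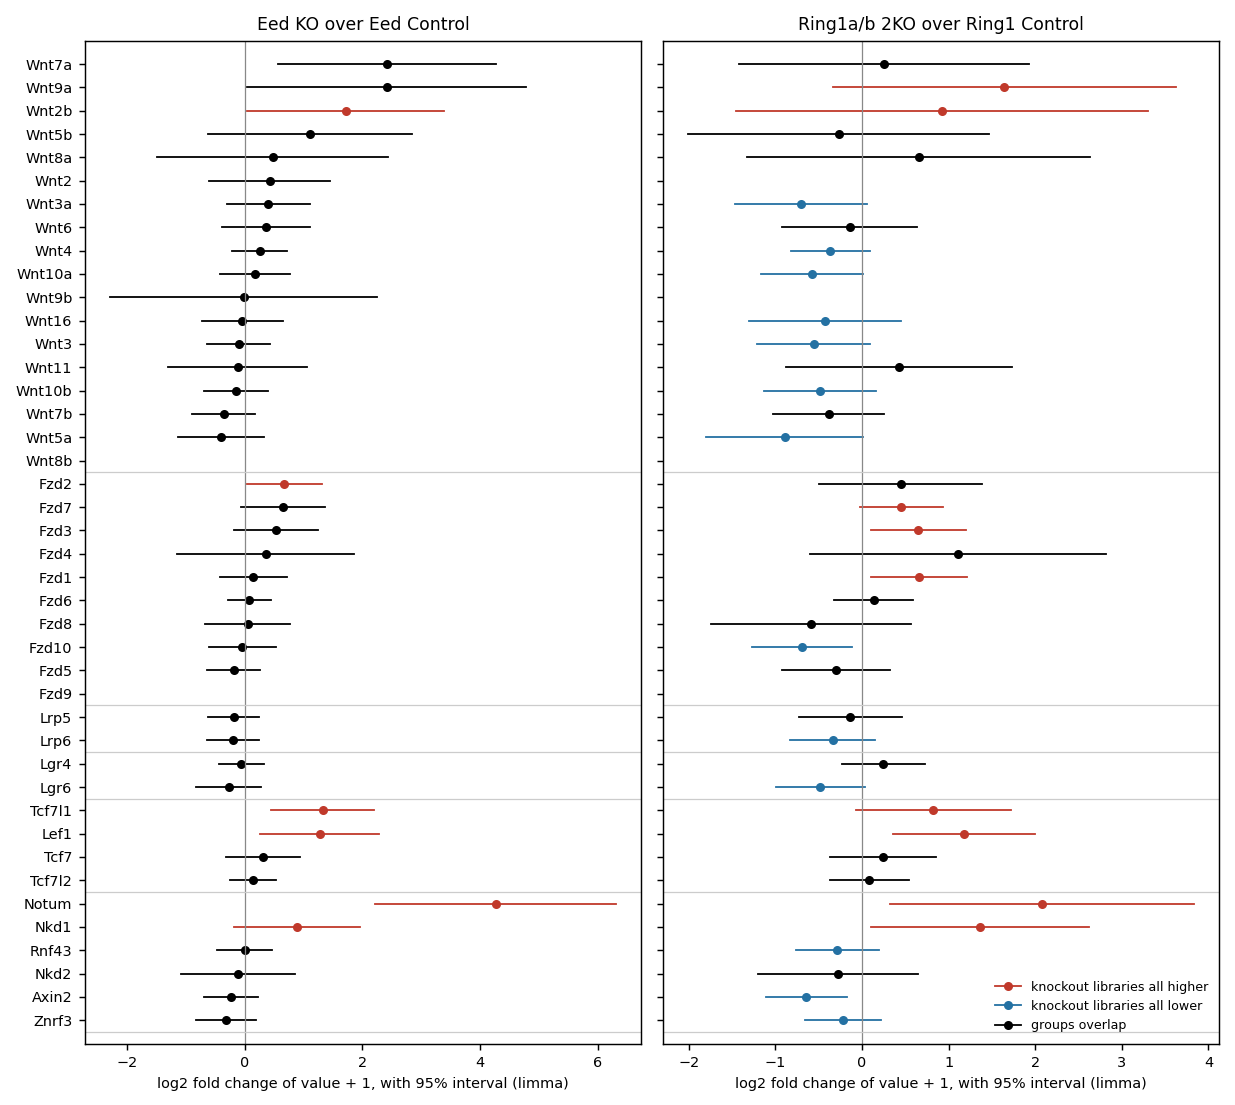
limma log2 fold change of value + 1 for each tested gene, with its 95% interval (not adjusted), Eed KO over Eed Control on the left and Ring1a/b 2KO over Ring1 Control on the right, grouped by role. Red marks genes higher in every knockout library, blue genes lower in every knockout library; there are 6 red and 0 blue on the left, and 9 red and 13 blue on the right, where a group has 2 libraries.

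The labelled knockout of both Ring1 and Rnf2, the ubiquitin ligases of Polycomb repressive complex 1, was set against its own controls. Higher without overlap in Ring1a/b 2KO were 9 of 38 tested genes: Lef1, Notum, Nkd1, Tcf7l1, Fzd1, Fzd3, Fzd7, Wnt2b and Wnt9a. Lower without overlap were 13: Wnt3, Wnt3a, Wnt4, Wnt5a, Wnt10a, Wnt10b, Wnt16, Fzd10, Lrp6, Lgr6, Axin2, Rnf43 and Znrf3. With 2 libraries a group, 21.4% of all genes tested were higher without overlap and 21.5% lower. The share of higher genes was thus near the background. The 13 of 38 lower were a larger share than that of all genes, a difference that was not tested. limma called 0 of the 38, against 0.0392% of all genes. At an unadjusted limma p under 0.05, 5 were higher and 2 lower, against 5.62% and 4.81% of all genes. edgeR called 0 of the 37 it tested, against 0.0412% of all 14565 genes, with 8 at an unadjusted p under 0.05, against 9.96%. The authors' deposited table called 0 higher and 0 lower, against 1.18% and 0.31% of all genes, and a DESeq2 refit on the recovered reads called 0, against 1.49%. That refit had 7 at an unadjusted p under 0.05, against 8.12% of all genes. The median log2 fold change was −0.14, with 18 positive and 20 negative, beside a median near 0 over all genes. It was 0.06 without Ring1a/b 2KO 1 and 0.005 without Ring1 Control 1, so its sign rests on the libraries kept. Wnt2, Wnt8b, Wnt9b and Fzd9 were not tested.

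Axin2 had 579 and 676 normalised reads in Ring1a/b 2KO, against 956 and 999 in Ring1 Control. Both knockout libraries were below both controls. The mean was 0.642 of the control mean (limma log2 fold change −0.64, SE 0.21, unadjusted p = 0.0121, adjusted p = 0.364), and the pairs by library number gave log2 ratios of −0.72 and −0.56. Notum had 31.5 and 39.4 normalised reads in Ring1a/b 2KO, against 4.17 and 13.3 in Ring1 Control. It was higher without overlap at 4.06-fold (limma log2 fold change 2.08, SE 0.78, adjusted p = 0.417). Nkd1 had 52.5 and 61.0 normalised reads in Ring1a/b 2KO, against 18.2 and 24.9 in Ring1 Control. It was 2.63-fold higher by means, with close replicates (limma log2 fold change 1.37, SE 0.56, adjusted p = 0.447). Znrf3 had 2244 and 2234 normalised reads in Ring1a/b 2KO, against 2700 and 2518 in Ring1 Control, and Rnf43 730 and 801, against 838 and 1037, both lower in both libraries. The feedback genes thus lay on both sides of 0: Znrf3, Rnf43 and Nkd2 had log2 fold changes of −0.22, −0.28 and −0.28.

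Lef1 had 189 and 332 normalised reads in Ring1a/b 2KO, against 104 and 116 in Ring1 Control. Both knockout libraries were above the controls, the shallower library 2 more so. The means of 260.1 ± 101 and 110.0 ± 8.95 (SD, n = 2 each) gave 2.36-fold (limma log2 fold change 1.18, 95% interval 0.36 to 2.00, unadjusted p = 0.00962, adjusted p = 0.349). Tcf7l1 had 159 and 228 normalised reads in Ring1a/b 2KO, against 144 and 79.8 in Ring1 Control. The groups did not overlap, but Ring1a/b 2KO 1 was close to Ring1 Control 1, with pair log2 ratios of 0.15 and 1.5. Tcf7 had 373 and 292 normalised reads in Ring1a/b 2KO, against 246 and 317 in Ring1 Control, and Tcf7l2 1122 and 1189, against 1173 and 1010. Both overlapped, with log2 fold changes of 0.24 (SE 0.27) and 0.09 (SE 0.20).

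Of the 15 ligands tested in the Ring1 table, 7 were lower without overlap in Ring1a/b 2KO, against 21.5% of all genes tested. These 7 included the most abundant. Wnt4 had 2383 and 2098 normalised reads in Ring1a/b 2KO, against 3056 and 2717 in Ring1 Control. Wnt10a had 1058 and 633, against 1230 and 1205, and Wnt3 797 and 448, against 942 and 821. Both knockout libraries were below both controls for each, and for Wnt10a and Wnt3 the shallow library 2 was the lower. Wnt5a, a ligand of β-catenin-independent signalling (ENSMUSG00000021994.15, chromosome 14, 28504750 to 28527448), had 532 and 235 normalised reads in Ring1a/b 2KO, against 702 and 615 in Ring1 Control. Its limma log2 fold change was −0.89 (95% interval −1.80 to 0.01, adjusted p = 0.485). Without Ring1a/b 2KO 1 it passed limma's threshold, with a log2 fold change of −1.48 (adjusted p = 0.0193), a fit in which the lone library 2 was assumed to vary like the controls. Over all genes that fit called 565, against 6 with all libraries. Wnt3a had 101 and 142 normalised reads in Ring1a/b 2KO, against 201 and 191 in Ring1 Control, Wnt10b 289 and 247, against 466 and 301, and Wnt16 74.8 and 91.4, against 104 and 120. These lay below their controls in both libraries, with log2 fold changes of −0.70, −0.48 and −0.43 and no limma p under 0.05 for any ligand.

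The summed level of all 18 ligands was 1649 and 1336 normalised reads per kb in Ring1a/b 2KO, against 2120 and 1879 in Ring1 Control. In the Eed table it was 5955, 5820 and 4941 in Eed KO, against 4223, 6854 and 4639 in Eed Control. The Ring1 groups did not overlap and the Eed groups did. Wnt9a had 15.5 and 26.9 normalised reads in Ring1a/b 2KO, against 9.90 and 3.32 in Ring1 Control, and Wnt2b 4.94 and 12.6, against 4.17 and 3.32. Both were of low level and higher in both knockout libraries. Wnt2b rests on 15 reads in the knockout libraries and 10 in the controls (limma log2 fold change 0.93, SE 1.06, adjusted p = 0.803). Wnt2 had 0.618 and 0 normalised reads in Ring1a/b 2KO, against 2.60 and 15.0 in Ring1 Control, which rests on 1 read in the knockout libraries and 14 in the controls.

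Frizzled genes with an unadjusted limma p under 0.05 were Fzd1 and Fzd3, with higher means in Ring1a/b 2KO, and Fzd10, with a lower one. Fzd1 had 819 and 565 normalised reads in Ring1a/b 2KO, against 407 and 455 in Ring1 Control (1.60-fold, limma log2 fold change 0.66, SE 0.25, adjusted p = 0.418). Fzd3, known for its part in planar polarity, had 653 and 825, against 544 and 400.5 (1.56-fold, limma log2 fold change 0.65, SE 0.25, adjusted p = 0.418). Fzd10 had 329 and 242, against 438 and 477 (0.625 of the control mean, limma log2 fold change −0.69, SE 0.26, adjusted p = 0.413). None of these overlapped. Fzd7 was also higher without overlap, with 839 and 726 normalised reads in Ring1a/b 2KO, against 542 and 602 in Ring1 Control. Fzd6, the most abundant receptor, overlapped with a log2 fold change of 0.14 (95% interval −0.32 to 0.59). Lgr6 had 2632 and 2819 normalised reads in Ring1a/b 2KO, against 4545 and 3182 in Ring1 Control, lower in both libraries (limma log2 fold change −0.48, SE 0.23, adjusted p = 0.510), while Lgr4, with 1568 and 1266, against 1095 and 1291, overlapped at 0.24 (SE 0.21). Lrp6 had 1954 and 1440 normalised reads in Ring1a/b 2KO, against 2200 and 2049 in Ring1 Control, lower in both libraries. Lrp5 had 563 and 631, against 517 and 828, and overlapped.

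**Figure D3:**
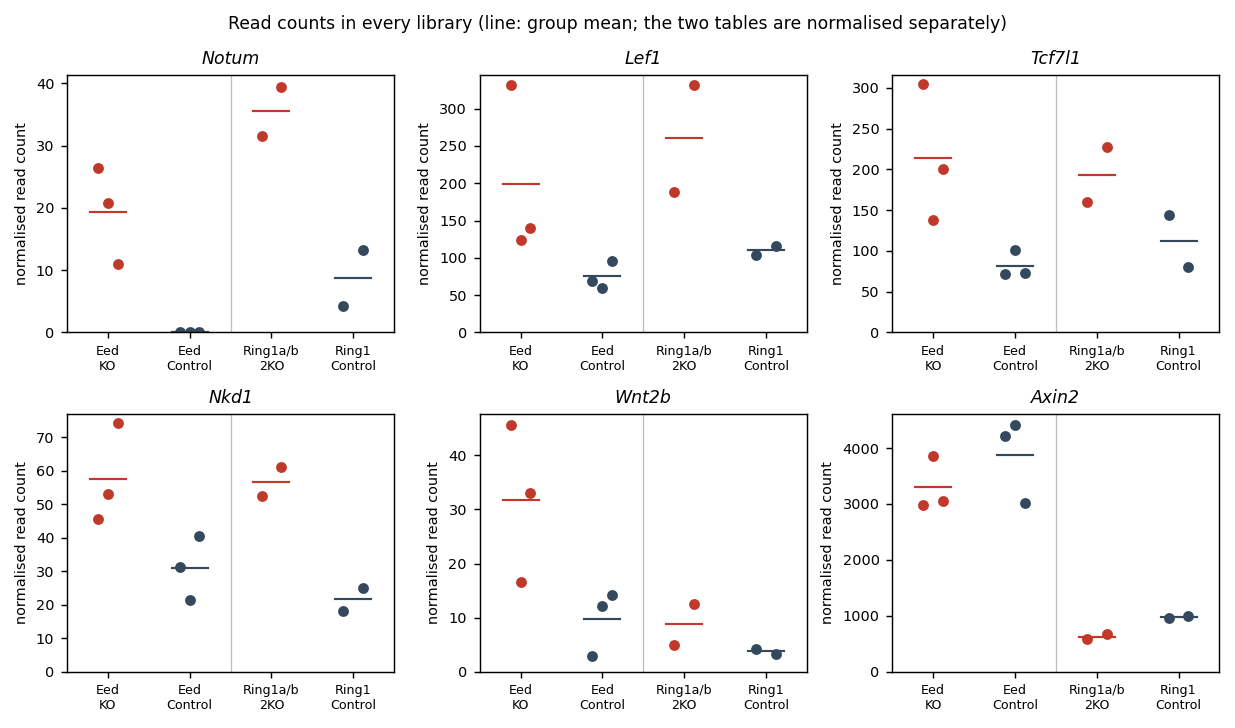
Normalised read count of 6 genes in every library (points; line, group mean), knockout red and left of its control in dark, with the Eed table left of the grey line and the Ring1 table right of it. Notum, Lef1, Tcf7l1, Nkd1 and Wnt2b sit higher in every knockout library of both kinds. In the Ring1 table Wnt2b rests on 15 knockout and 10 control reads. Axin2 sits lower in both Ring1a/b 2KO libraries and overlaps in the Eed table.

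The knockouts were then set side by side, each as a change against its own controls, of which they share none. A difference between the knockouts cannot be told apart from a difference between the tables, which also differ in depth and in libraries a group. Lef1, Tcf7l1, Notum, Nkd1 and Wnt2b, 5 of 38 genes tested in both tables, were higher without overlap in both comparisons, as were 2.58% of the 15096 genes tested in both. For Wnt2b this rests on 15 knockout and 10 control reads in the Ring1 table. Lower without overlap in both were 0 of the 38 and 1.78% of all. Log2 fold changes were positive in both for 16 genes, negative in both for 14 and of opposite sign for 8, against 33.9%, 33.1% and 33.0% of all genes. The difference between the knockouts was tested over all 10 libraries, and limma called 0 of 15096 genes (smallest adjusted p = 1), with 1 of the 38 at an unadjusted p under 0.05, against 1.89% of all. That gene was Wnt3a, with log2 fold changes of −0.70 in Ring1a/b 2KO and 0.41 in Eed KO, a difference of −1.11 (SE 0.47, limma unadjusted p = 0.0367, adjusted p = 1). For Axin2 the difference was −0.42 (95% interval −1.07 to 0.24) and for Lef1 −0.10 (95% interval −1.52 to 1.32). Sizable differences either way lie within the Lef1 interval, and within the Axin2 interval mainly negative ones.

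**Figure D4:**
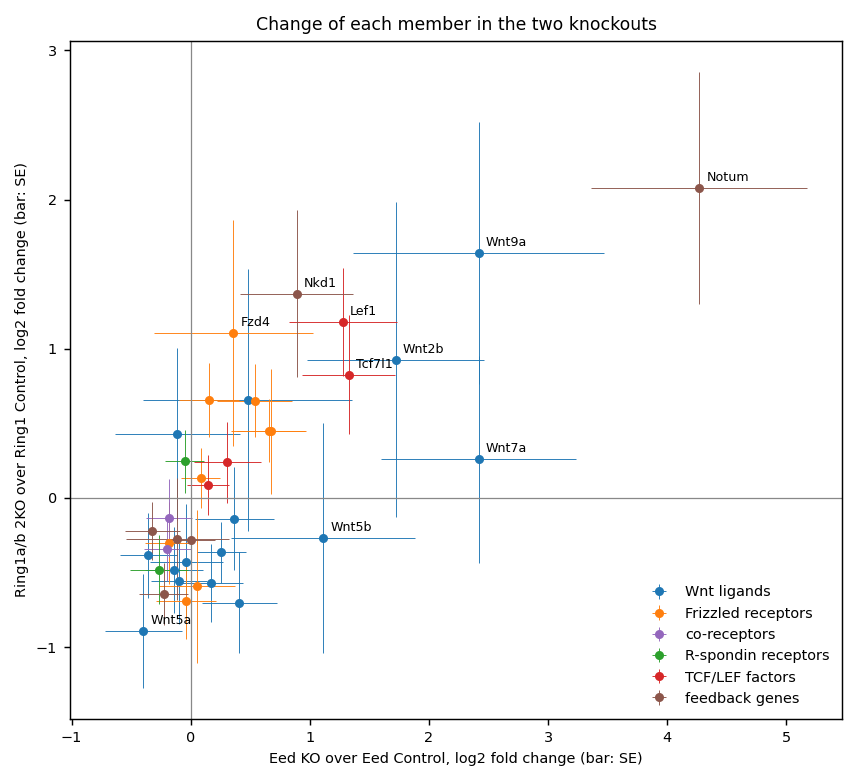
limma log2 fold change of the 38 genes tested in both tables, Eed KO over Eed Control on the x axis and Ring1a/b 2KO over Ring1 Control on the y axis, bars ± 1 SE, coloured by role. Notum, Wnt9a, Lef1, Tcf7l1, Nkd1 and Wnt2b lie in the upper right; Wnt5a lies lowest, at −0.40 and −0.89.

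Other genes of the pathway were counted in 4 lists, and the shares over all genes tested are given first. At an unadjusted limma p under 0.05, 3.4% were higher and 1.33% lower in Eed KO, and 5.62% and 4.81% in Ring1a/b 2KO. limma called 0% of all genes in the Eed comparison and 0.0392% in the Ring1 comparison, where edgeR called 0.0412%. The authors' deposited table called 0.707% higher and 0.0539% lower in Eed KO, and 1.18% and 0.31% in Ring1a/b 2KO. The canonical core, 28 genes from the destruction complex to the nuclear cofactors, had 9 positive and 19 negative log2 fold changes in Eed KO (median −0.08) and 8 and 20 in Ring1a/b 2KO (median −0.15), and 0 of them were called by limma or by the authors' deposited table; at an unadjusted limma p under 0.05 there were 0 higher and 1 lower in Eed KO, and 1 higher and 1 lower in Ring1a/b 2KO. Of 22 tested genes of ligand secretion and reception in the Eed comparison 0 were called by either, with 5 higher at an unadjusted limma p under 0.05. In the Ring1 table, of 21 tested, limma called 0, with 2 higher and 4 lower at an unadjusted p under 0.05, edgeR called 0, and the authors' deposited table called 1 higher and 1 lower. The higher one was Lgr5, an R-spondin receptor known from follicle stem cells, with 263 and 262 normalised reads in Ring1a/b 2KO, against 113 and 56.5 in Ring1 Control (DESeq2 adjusted p = 0.0322, authors' deposited table). The lower one was Rspo3, an R-spondin, with 79.1 and 30.5 normalised reads in Ring1a/b 2KO, against 262 and 316 in Ring1 Control (DESeq2 adjusted p = 0.000858, authors' deposited table). Rspo3 overlapped in the Eed table, with 199, 608 and 835 normalised reads in Eed KO, against 603, 1085 and 732 in Eed Control.

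Of the secreted inhibitors, Sfrp2, which binds Wnt ligands, was called higher in the authors' deposited table in both knockouts. Of all genes, 0.707% were called higher there in Eed KO and 1.18% in Ring1a/b 2KO. Sfrp2 had 65.9, 24.9 and 0.789 normalised reads in Eed KO and 0 in all 3 Eed Control libraries (DESeq2 adjusted p = 0.0150), and 19.8 and 35.9 in Ring1a/b 2KO and 0 in both Ring1 Control libraries (DESeq2 adjusted p = 0.00949). Eed KO 3 held a single read. limma called 0 of the 12 tested inhibitors in the Eed table and 0 of the 10 in the Ring1 table, Sfrp2 among them. edgeR called 0 of the 8 and the 9 it tested. The authors' deposited table called no inhibitor other than Sfrp2. Of 19 tested genes in a list of other known Wnt targets, 10 were positive and 9 negative in Eed KO and 7 positive and 12 negative in Ring1a/b 2KO, with 0 called. At an unadjusted limma p under 0.05 these were 4 higher and 0 lower in Eed KO, against 3.4% and 1.33% of all genes. In Ring1a/b 2KO they were 2 higher and 1 lower, against 5.62% and 4.81%.

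Markers of other cells were summed in the same libraries. Summed over 13 hair follicle markers, levels were 15484 to 41221 normalised reads in Eed KO, against 12385 to 18128 in Eed Control, with 11 of 13 means higher. They were 6928 to 11076 in Ring1a/b 2KO, against 4103 to 5363 in Ring1 Control, again with 11 of 13 higher. Lef1, Tcf7l1 and Tcf7 were highest in Eed KO 1, the library with the highest follicle sum. In the Ring1 table the follicle sum was higher in Ring1a/b 2KO 1, at 11076, than in Ring1a/b 2KO 2, at 6928, while Lef1 and Tcf7l1 were higher in Ring1a/b 2KO 2. Fibroblast markers summed to 361 to 1023 in Eed KO, against 62.9 to 259 in Eed Control, and to 174 to 815 in Ring1a/b 2KO, against 87.5 to 135 in Ring1 Control, with 7 and 6 of 8 means higher. Merkel cell markers summed to 93.1 to 341 in Eed KO, against 40.6 to 76.0 in Eed Control, and to 172 to 203 in Ring1a/b 2KO, against 16.7 to 34.9 in Ring1 Control, with 4 and 5 of 6 means higher. Basal keratinocyte markers, which sum over 11 genes, were 281088 to 325114 in Ring1a/b 2KO, against 336728 to 408826 in Ring1 Control, with 2 of 11 means higher, and they overlapped in the Eed table. Suprabasal markers were 158687 to 348524 in Eed KO, against 248303 to 487070 in Eed Control, with 0 of 9 means higher, and 65254 to 65296 in Ring1a/b 2KO, against 46244 to 53129 in Ring1 Control, with 4 of 9 higher. Without overlap in the Ring1 table were 3 further lists. Melanocyte markers summed to 353 to 658 in Ring1a/b 2KO, against 241 to 311 in Ring1 Control, with 7 of 8 means higher. Schwann cell and neuronal markers summed to 748 to 1154, against 557 to 590, with 5 of 7 higher, and muscle and adipocyte markers to 74.2 to 98.6, against 41.2 to 64.8, with 4 of 6 higher. These 3 lists overlapped in the Eed table. Langerhans and myeloid, T cell, endothelial and sebaceous gland markers overlapped in both tables. No marker found in a table was at 0 in all its libraries. In Ring1a/b 2KO the authors' deposited table called Isl1 and Krt18 higher among Merkel cell markers and Ncam1 among Schwann and neuronal ones, against 1.18% of all genes. Mbp and Krt20, of the same lists, had log2 fold changes there of −0.82 and −3.43 and were not called. The part of these markers in the values of Lef1, Tcf7l1, Notum or the ligands was not tested. In sorted bulk samples more or fewer cells of a type and more or less RNA of a marker per cell cannot be told apart.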

How the data were processed

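The authors deposited one gene table per knockout with RNA sequencing values of sorted epidermal cells. The submitters' processing notes name the genome build mm10, kallisto 0.42.5 and DESeq2 3.11. The values per library are normalised read counts, a signal per gene in the authors' deposited tables. The deposited tables also hold the authors' log2 fold changes, their standard errors (handled as a score) and their p-values, raw and adjusted. In every library 100% of values were whole multiples of one step (tolerance 1e-06), as counts divided by a size factor would be. The whole counts behind them were recovered and are called reads here. As kallisto estimates counts, these may be rounded estimates. Counting with strand is not given in the sources used here, and 9 of the 42 genes, among them Lef1, Tcf7l1, Notum, Axin2 and Wnt5a, overlap exons of noncoding genes on the other strand, so their reads cannot be told apart. Positions and exon lengths are from GENCODE M21 (mm10), where 40 of 42 identifiers matched with their version.

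Each knockout was set against its own control with limma 3.58.1 (trend, robust; R 4.3.3) on log2(value + 1). Genes needed a mean of 5 or more, with Benjamini-Hochberg adjustment over all genes tested and calls at an adjusted p under 0.05. Fold changes on that scale understate the change of low genes; folds are ratios of group means. DESeq2 1.42.0 and edgeR 4.0.16 (quasi-likelihood) were run on the recovered reads. All tools were also run on simulated counts, with changes set only in genes with a mean of at least 50. Those runs do not cover low genes such as Notum, Wnt2b and Wnt9a. The 42 genes and the lists were chosen with earlier results of these data known. Values in every library are given for genes called by any tool, with an unadjusted limma p under 0.05, without overlap at a mean of at least 50, or among the 3 highest of their role per kb; Nkd1 in the Eed table and Wnt2b, Wnt9a and Wnt2 in the Ring1 table fall outside this and were added after their values were seen. The floor of 3 reads covers counting error only; 95% intervals are limma's, from the spread between libraries. Alternatives were other pseudocounts, filters, normalisation, thresholds, count tests, the replicate block and each library left out. Values per library are limited by depth in Ring1 library 2 of both groups.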

Additional observations from a re-analysis of the deposited data

How the results depend on the processing

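limma called 0 of the genes in the Eed comparison under every filter, pseudocount, normalisation and left-out library tried, and DESeq2 on the recovered reads called 1. By DESeq2 the Eed count was 0 to 3 with single libraries left out, 0 without Eed KO 1 or Eed Control 3, and 3 (Fzd7, Notum, Tcf7l1) without Eed Control 2; over all genes those fits called 30 to 189, against 127 with all libraries. At an adjusted p under 0.1 it was 2 (Notum, Tcf7l1). The median log2 fold change in Eed KO was 0.026 with a mean of at least 50, and 0.074 to 0.242 with single libraries left out. In the Ring1 comparison limma and DESeq2 each called 0 to 1 with single libraries left out, the 1 being Wnt5a without Ring1a/b 2KO 1, where limma called 565 and DESeq2 679 of all genes (6 and 231 with all libraries). The Ring1 median was −0.172 to 0.0634 with single libraries left out, so its sign rests on the libraries kept. With the replicate block, DESeq2 called 1 gene in the Eed comparison, Wnt7a (adjusted p = 0.00165), with Notum at an adjusted p of 0.0561. With that block limma called 0 in both comparisons. Same-numbered Eed libraries had correlations of their deviations of −0.11, 0.15 and 0.21, against −0.23 to 0.11 for those with different numbers. The Ring1 table has only 2 pairs. These values do not decide if the numbers pair libraries, and the main fits did not take them to do so. Same-numbered Eed columns do share a letter in their names, and library 2 was the shallower in each Ring1 group. A pairing by number is thus possible, but the sources used here do not state one. The test of the difference between knockouts called 0 under all alternatives run. For the 7 genes named in the Eed comparison and the 20 in the Ring1 comparison, 93 of 94 and 237 of 238 values under limma's alternatives and the edgeR and DESeq2 fits of all libraries kept their direction and side of the threshold; the exceptions are Notum by DESeq2 and Wnt5a without Ring1a/b 2KO 1. The DESeq2 fits with a library left out are not in that tally: they moved Wnt7a past the threshold without Eed Control 1 and Tcf7l1 without Eed KO 2 or Eed Control 2, and Wnt7a in Ring1a/b 2KO had a log2 fold change of 0.10 with all libraries and −0.62 without Ring1a/b 2KO 2, neither past the threshold. The causes were not tested. Genes with few reads, such as Notum, Wnt2b and Wnt9a, and all Ring1 values from library 2, are the least precise.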

Other observations

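Neighbouring Wnt genes were compared because 3 pairs of tested or listed ligands lie side by side in mm10. Wnt3a and Wnt9a, 16175 bases apart on chromosome 11, had log2 fold changes of −0.70 (SE 0.34) and 1.64 (SE 0.88) in Ring1a/b 2KO and of 0.41 (SE 0.31) and 2.42 (SE 1.05) in Eed KO. Wnt6 and Wnt10a, 6193 bases apart on chromosome 1, had −0.14 (SE 0.35) and −0.57 (SE 0.26) in Ring1a/b 2KO and 0.37 (SE 0.33) and 0.17 (SE 0.26) in Eed KO. Wnt9b, 24328 bases from Wnt3 on chromosome 11, averaged 6.85 ± 3.58 normalised reads in Eed KO and 10.4 ± 13.0 in Eed Control (SD, n = 3 each), too few to set beside Wnt3. None of these passed limma's adjusted threshold.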
